A study of Fragaria x ananassa with 21 samples.

Results

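The small RNA table of ripening strawberry fruit held 1735 distinct mature sequences. Of these, 258 carried the name of a known miRNA and 1477 were predicted from genomic hairpins and carried names beginning with PC-. The 162 predicted sequences that reached at least 10 normalized reads in at least 1 of the 7 small RNA libraries are described here. Normalized reads are the deposited values, in which the reads of each library were multiplied by 1 factor. The members were chosen by these normalized levels, which are therefore given as a description. The last members inside the minimum were PC-5p-390161_4 and PC-5p-131652_13, both with a highest level of 10.04, and the first outside it were PC-5p-170477_10 and PC-5p-107571_17, both with 9.82.

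The fruits were receptacles of octaploid Fragaria x ananassa 'Toyonoka', with the achenes removed, from plants grown in a greenhouse. At 2 weeks after anthesis, called day 0, 100 μL of distilled water, of abscisic acid (ABA) at 1 μM, or of nordihydroguaiaretic acid (NDGA) at 100 μM was injected through the pedicel. NDGA blocks the synthesis of ABA. Water controls were taken on day 0 (CK0), day 5 (CK5) and day 8 (CK8), and the treated fruits on day 5 (ABA5, NDGA5) and day 8 (ABA8, NDGA8). By the study's methods ABA-treated fruits reached the initial red stage on day 5 and control fruits on day 8. Fruits of the same day thus differed in ripeness, and treatment and stage cannot be told apart in these comparisons. The study's methods count RNA from 10 fruits as 1 biological replicate, and describe 3 replicates per condition that were pooled within the condition. By the labels the pooling was in equal amounts, and each condition had 1 library. The comparisons therefore had no replicate check, no p-value is given, and every interval covers counting error only.

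The libraries held 237943 reads (CK0) to 678587 reads (NDGA5) over all listed sequences. A single named miRNA, mdm-miR166a, took 63.2% (ABA5) to 84.8% (NDGA5) of the normalized reads. The 162 members took 2.86% of the reads in CK0 (95% Clopper-Pearson interval 2.79 to 2.92) and 6.02% in ABA5 (5.93 to 6.12). In the other 5 libraries the share was between 3.32% (NDGA5) and 4.62% (CK8). Across the members CK8 stood nearer to CK0 than to CK5, with a rank correlation of 0.74 against 0.52, which is described further on. Among the 41 members that reached 50 normalized reads the gap was small, 0.83 against 0.78. Without the most abundant member the lowest share was 1.44%, in NDGA5, and the highest 3.16%, in CK8.

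Plant miRNAs are cut from the stem of a folded precursor by a DICER-LIKE enzyme as a duplex of a guide strand and its partner from the opposite arm, with short overhangs at the 3′ ends. The guide strand is loaded into an ARGONAUTE protein, often one that prefers a 5′ uridine, and directs the cleavage or the repression of matching transcripts. Another class of small RNAs, 24 nt long, often begins with adenosine, comes largely from repeats and takes part in DNA methylation. ABA is known as a hormone that promotes ripening in strawberry, a non-climacteric fruit.

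The sequences below are the members on which the results turn, as deposited (T stands for U), with the seed, bases 2 to 8, in capitals. The first 5 had the highest mean levels, PC-5p-47435_51 lies opposite the fifth in its stem, and the last 6 had one of the largest rises or falls in at least 1 comparison.
PC-5p-86_29141: tCTACTCTctctcgaatggacc
PC-3p-387_6421: tGAATTGGgatttgtcgaatt
PC-3p-4474_1001: tTGGAGAGagagtagacaatt
PC-3p-917_3142: aCAAGTCGtccttggttcacc
PC-3p-4278_1039: tGCTTCAAgtctggccaatact
PC-5p-47435_51: tATTGGCAgacttgaagcatt
PC-3p-4094_1077: tGCTCACTcttcttctgtcagc
PC-3p-12760_352: gCTCGCTCttcttctgtcagca
PC-5p-20243_186: aGCATACAtcaagtcgtgagc
PC-5p-3974_1102: tTGGCATTggttttgtatatc
PC-3p-20428_184: aAATTGAActtttgaaagcct
PC-3p-14985_285: tAAATTGAacttttgaaagcct

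The stems of some of these members are shown next, as genomic letters 5′ to 3′ on the strand of the precursor. The stretches that the members match, with at most 1 mismatch, are in capitals. PC-5p-20243_186 has 1 mismatch to its stretch, a T where the genome has C. Positions are those of the deposited table, on linkage groups, and their genome build was not given in the sources used here. These stems carry no gene annotation in the table.
PC-3p-4474_1001 (first) and PC-5p-86_29141, LG6:12165639-12165712, plus strand: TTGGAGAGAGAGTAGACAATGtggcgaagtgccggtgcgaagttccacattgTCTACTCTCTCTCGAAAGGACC
PC-5p-47435_51 (first) and PC-3p-4278_1039, LG1:6290592-6290673, minus strand: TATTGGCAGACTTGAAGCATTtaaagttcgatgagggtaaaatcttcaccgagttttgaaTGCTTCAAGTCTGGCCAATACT
PC-5p-88912_22 (first) and PC-3p-4094_1077, LG3:29884157-29884247, plus strand: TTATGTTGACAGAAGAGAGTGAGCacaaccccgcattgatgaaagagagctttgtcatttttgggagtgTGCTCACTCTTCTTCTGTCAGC
PC-3p-917_3142, LG4:6058665-6058737, minus strand: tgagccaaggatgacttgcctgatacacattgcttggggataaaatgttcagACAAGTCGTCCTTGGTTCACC
PC-5p-20243_186, LG7:1077816-1077897, minus strand: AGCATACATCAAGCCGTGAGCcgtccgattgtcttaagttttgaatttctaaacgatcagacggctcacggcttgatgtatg

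PC-5p-86_29141 was the most abundant member and PC-3p-4474_1001 the third by mean level, and both came from the same stem on LG6. The table calls the first a 5p and the second a 3p sequence, from overlapping hairpins. In the deposited fold PC-3p-4474_1001 lay on the 5′ arm and PC-5p-86_29141 on the 3′ arm, with offsets of 5 bases at both ends of the duplex. PC-5p-86_29141 differed from the genomic letters by T17A, where the first letter is the member's base, the number its position from the 5′ end and the last letter the genome's base. PC-3p-4474_1001 differed by T21G.

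Over the 181 placements of the members in hairpins, the arm in the name was the arm of the fold in 168, the other arm in 12, and undecided in 1. All 162 members matched a deposited hairpin with at most 1 mismatch: 101 matched without a mismatch (62.3%) and 61 with 1. Among the 1315 predicted sequences below 10 normalized reads, 49.3% matched without a mismatch. The fruit is octaploid. The part of allelic or homoeologous differences in the mismatches was not tested.

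The 147 hairpins that carried a member had a median length of 181 bases and a median minimum free energy index of 1.22. This index is the folding energy per base divided by the GC content, and higher values mean a tighter fold for the base composition. The 782 hairpins with no member had a median of 1.25. The GC content was 38.2% in the hairpins with a member and 33.8% in the others (medians).

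In 23 pairs, made of 41 members, both strands of a stem lay opposite each other in the fold and both were members. In 5 of these pairs the strands were offset by 1 to 3 bases at both ends, the geometry of a DICER-LIKE product, and in 3 the offset was exactly 2 at both ends. One of the 3 was PC-5p-47435_51 with PC-3p-4278_1039. The 3p strand was the more abundant in every library, 10.1-fold (NDGA8) to 20.3-fold (CK8) above its partner on the normalized reads + 1 scale. Another was PC-5p-24423_140 with PC-3p-4611_978 on LG4, in which the 3p strand was 2.39-fold (NDGA5) to 3.87-fold (CK5) above its partner. The last was PC-5p-52022_45 with PC-3p-50145_47 on LG6, a pair of low level, in which the 5p strand had 39 and 16 reads in NDGA5 and NDGA8 against 12.5 and 2 for the 3p strand, and in the other libraries each strand had at most 11 reads. The strand that prevailed was the same in all 7 libraries for the first 2 pairs, and for the last it could not be read at this depth. Over all predicted hairpins with both strands listed, an offset of 1 to 3 bases at both ends was found in 10 of 97 with a member (10.3%) and in 32 of 554 without one (5.78%).

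Of the 162 members, 72 were 21 nt long (44.4%), 35 were 22 nt (21.6%) and 44 were 24 nt (27.2%). The predicted sequences below the minimum were mostly 24 nt long (50.2% of 1315), and 24 nt was rare among the named miRNAs (6 of 258, 2.33%). For 21 and for 24 nt the share of the members lay between those of the other 2 sets, and for 22 nt it was the highest of the 3 sets. Of the 24-nt members, 32 of 44 began with A (72.7%), and of the 21-nt members 34 of 72 began with T (47.2%). The predicted sequences below the minimum were similar, with A in 62.4% of 660 at 24 nt and T in 51.1% of 280 at 21 nt. A T was also the most frequent first base of the 22-nt members (18 of 35). The 24-nt members were less abundant, with a median highest level of 12.6 normalized reads against 26.9 for 21 nt and 34.6 for 22 nt. Of the 41 members that reached 50 normalized reads, 2 were 24 nt long.

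**Figure D1:**
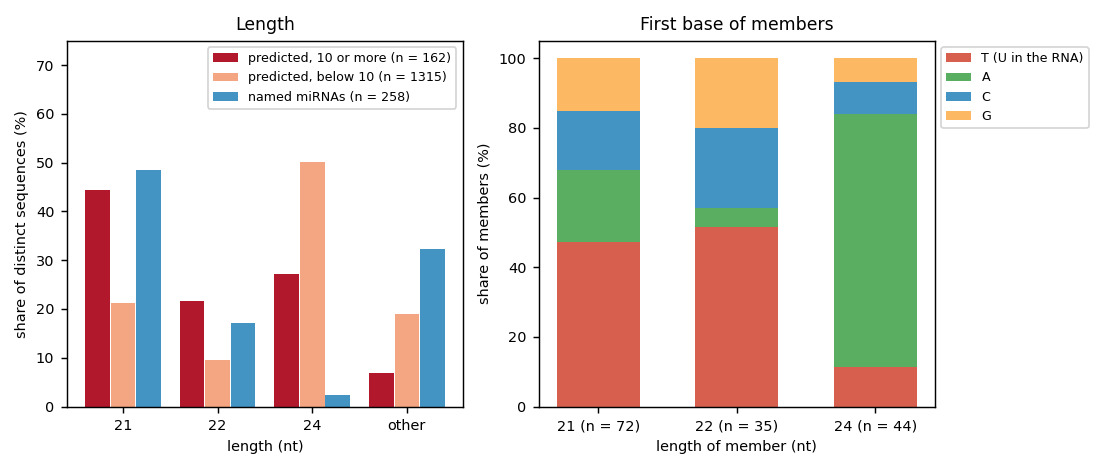
Left, share of distinct sequences (%) by length in nt for the members, for the predicted sequences below 10 normalized reads and for the named miRNAs. Right, share of the 21-, 22- and 24-nt members (%) by first base. Of the members 27.2% were 24 nt long, against 2.33% of the named miRNAs. An A began 72.7% of the 24-nt members and 62.4% of the 24-nt predicted sequences below 10 (not drawn).

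In all, 18 members were tied to a known miRNA family by their sequence or their hairpin. In 12 of them the mature sequence itself matched a named miRNA over at least 18 bases with at most 2 mismatches (7.41% of the members, against 0.380% of the predicted sequences below the minimum). In 14 the hairpin overlapped the precursor of a named miRNA on the same strand or held a named mature sequence without a mismatch. The families were miR156, miR169, miR171, miR396, miR399, miR482, miR535, miR2111 and miR3627. A shared seed alone linked few members: 10 had the seed of a named miRNA, and 7 of these were among the 12 close matches.

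Of these members, 5 lay in miR156 hairpins, a family that represses SPL transcription factors and holds back phase changes in plants. PC-3p-4094_1077, from the 3′ arm, had 30.1, 78.1 and 217 normalized reads in the controls CK0, CK5 and CK8, 402 and 289 after ABA on days 5 and 8, and 59.5 and 49.5 after NDGA on these days. PC-3p-12760_352, from a neighbouring hairpin, had 30.1, 85.8, 99.6, 263, 184, 80.5 and 34.0, in the same order of libraries. Both members were highest in the ABA libraries and lowest in CK0, and CK8 was above both NDGA libraries. They had at least 16 bases in common and may share reads, so their levels are not independent. Over 21 bases PC-3p-12760_352 matched the named osa-miR156j-3p_2ss9CT14T- without a mismatch, and PC-3p-4094_1077 matched it with 1. This named strand had 33.7, 194, 121, 874, 671, 152 and 85.5, in the same order. The guide strand of the same hairpins, listed as ppe-miR156c_L+1, had 2214, 7221 and 6626 normalized reads on days 0, 5 and 8 with water, 17892 and 18894 on days 5 and 8 with ABA, and 6163 and 3595 with NDGA. It too was highest in the ABA libraries. The other 3 members of these hairpins, PC-5p-28210_112, PC-5p-88912_22 and PC-3p-75781_26, peaked in ABA5 at 39.9, 22.7 and 22.7 normalized reads.

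PC-3p-917_3142 was the strand opposite a named miR169 sequence in one hairpin on LG4. The miR169 family acts on NF-YA transcription factors. Its levels were 351, 333 and 1140 in the controls CK0, CK5 and CK8, 358 and 358 after ABA on days 5 and 8, and 282 and 339 after NDGA on these days. CK8 stood apart, 3.24-fold above CK0 (counting interval 2.83 to 3.73), while the other 6 libraries lay within 282 to 358. The named strand (mdm-miR169c_L+1R-1_2ss2TG21CT) was also highest in CK8, with 363 normalized reads, against 33.1 (ABA8) to 146 (CK0) elsewhere. PC-3p-917_3142 thus exceeded the named strand of its stem in all 7 libraries.

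Another miR169 hairpin on LG5 gave PC-3p-24055_144, with 44.5, 67.6 and 87.8 normalized reads on days 0, 5 and 8 with water, 42.9 and 18.2 on days 5 and 8 with ABA, and 53.4 and 25.4 with NDGA. Its level in ABA8 was 4.63-fold below that in CK8 (interval 2.77 to 9.11). The miR396 family acts on growth-regulating factors. PC-5p-36983_74 differed from mdm-miR396b by C3T and T15C, with the named base first. It had 8.61, 20.9 and 4.43 normalized reads in the controls CK0, CK5 and CK8, 2.45 and 1.30 after ABA on days 5 and 8, and 24.3 and 4.91 after NDGA on these days, and was lowest in the 2 ABA libraries. Each of these 2 levels stands for fewer than 3 reads. The named mdm-miR396b was also lowest there, with 1518 and 1510, against 1697 (NDGA8) to 3934 (NDGA5) elsewhere. PC-3p-30454_100, whose hairpin held a miR2111 sequence, was highest in CK5 (59.6) and between 12.9 (CK0) and 39.2 (ABA5) elsewhere. The miR2111 and miR399 families are known in phosphate signalling and, for miR2111, in nodulation.

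Some members were variants of one another. In 9 groups, members had at least 16 bases in common; these groups held 24 members, and counting each group once left 147 sequences. The largest, with 6 members, was a 24-nt group that included PC-5p-26874_121. A group of 4 with a common AT-rich core held PC-3p-14985_285, PC-3p-20428_184, PC-3p-36668_75 and PC-3p-20041_189. PC-3p-20428_184 had 141, 13.7 and 42.8 normalized reads on days 0, 5 and 8 with water, 1.23 and 3.89 on days 5 and 8 with ABA, and 13.8 and 2.46 with NDGA. PC-3p-14985_285, which is the same sequence with 1 more T at its 5′ end, had 80.3, 21.7, 108, 8.59, 3.24, 40.5 and 14.7, in the same order of libraries. Both were highest in CK0 and CK8, and the order of these 2 libraries differed between them. Sequences this alike, with matching sites at several places, may share reads in the authors' counting, and their separate levels are uncertain to that extent.

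The seed AGACGAT was common to 5 members of 24 nt, the most for any seed. All but PC-3p-221641_7 resembled the hairpin of PC-5p-20243_186: 8 members, that one included, matched it on 1 of its strands with at most 3 mismatches, as did 72 predicted sequences below the minimum. PC-5p-20243_186 had 1.43, 2.42 and 3.32 normalized reads in the controls CK0, CK5 and CK8, 47.8 and 188 after ABA on days 5 and 8, and 7.28 and 2.46 after NDGA on these days. The highest level of the other 7 was between 10.9 (PC-3p-77523_26) and 24.3 normalized reads (PC-5p-141757_12), and none of these 7 was highest in ABA8. One of them, PC-5p-76013_26, also had its 2 highest levels after ABA, with 14.1 in ABA5 and a little less in ABA8. Elsewhere its levels ran from 2.58 (CK8) to 7.78 (NDGA8). Its level in ABA8 exceeded that in CK8, its lowest library, by 3.90-fold (counting interval 1.27 to 19.2). Against CK5 (7.25 normalized reads) its level in ABA5 was 1.83-fold higher (0.785 to 5.46), short of 2-fold. The level in ABA8 stood less far above CK5 than that in ABA5, so a rise after ABA was not shown for this member with CK5 as the control. Reads behind the levels of PC-5p-20243_186 numbered 39 in ABA5 and 145 in ABA8, against 1 to 9 elsewhere.

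The members spanned a wide range of levels. In at least 1 library, 4 of them reached 1000 normalized reads and 29 reached 100, while 76 stayed under 20 in all libraries. PC-5p-86_29141 alone made up 50.4% of the summed normalized level of the members, with 2842, 9501 and 3743 on days 0, 5 and 8 with water, 9969 and 6532 on days 5 and 8 with ABA, and 10305 and 11627 with NDGA. It was the highest member in every library. Its partner PC-3p-4474_1001 had 242, 689, 128, 1119, 1022, 767 and 702, in the same order of libraries. Both strands were lowest in CK0 and CK8, and the ratio of the first to the second, each with 1 added, ran from 6.39 (ABA8) to 28.9 (CK8). PC-3p-387_6421 had 2424, 1216 and 1425 in the controls CK0, CK5 and CK8, 551 and 384 after ABA on days 5 and 8, and 1704 and 1754 after NDGA on these days. Both ABA libraries lay below all others for this member. It shares its seed with a named miR2275 sequence and did not match it otherwise.

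Among the other members with the 12 highest means PC-5p-3974_1102 varied most, from 26.6 (CK8) to 349 (ABA8), and is described further on. PC-5p-3369_1253 ran from 164 (CK0) to 361 (ABA8), PC-3p-8512_558 from 147 (CK0) to 258 (ABA5), PC-3p-16491_249 from 109 (ABA8) to 190 (CK5) and PC-3p-4758_954 from 112 (NDGA5) to 247 (CK8). PC-5p-6969_681 ran from 89.5 (ABA8) to 327 (CK8). Over the 41 members that reached 50 normalized reads, the highest level exceeded the lowest by a median of 4.09-fold after adding 1, and over the 77 named miRNAs at this minimum by 5.44-fold.

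**Figure D2:**
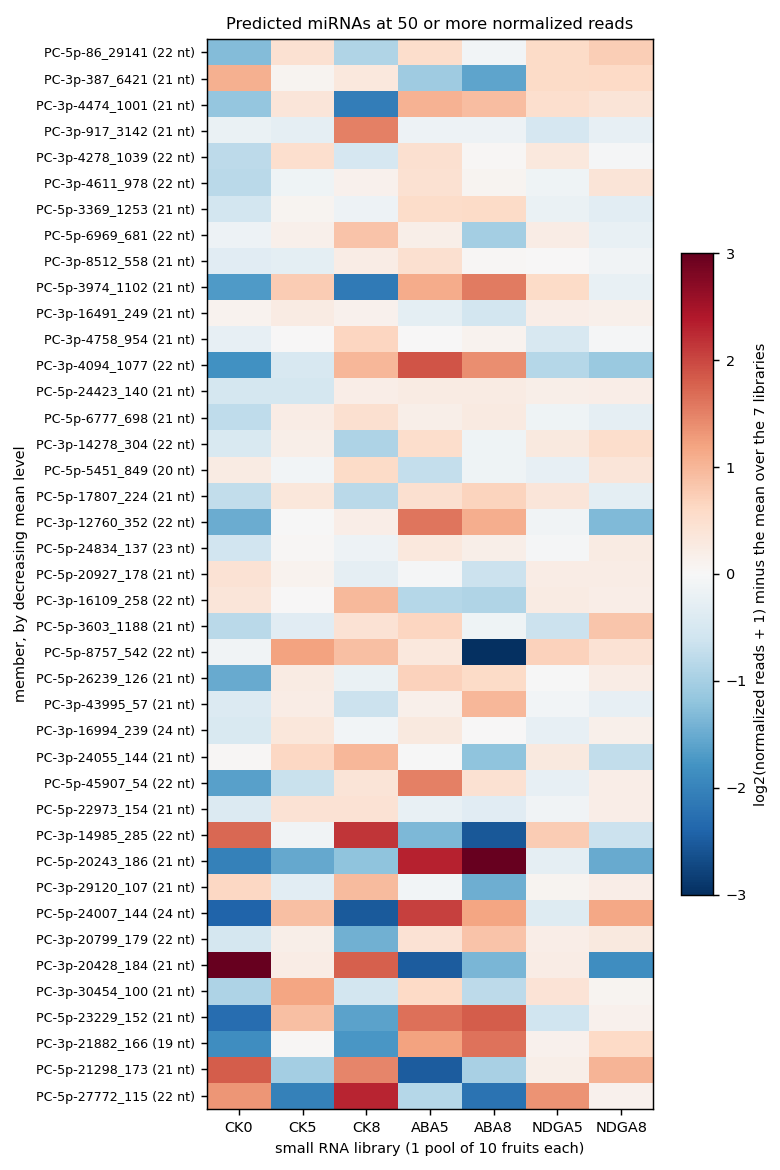
Level of the 41 members that reached 50 normalized reads (one per line, by decreasing mean) in the 7 libraries, as log2(normalized reads + 1) minus the mean over the libraries. CK0 and CK8 share colours in several lines, such as PC-5p-3974_1102 (35.9 and 26.6 normalized reads) and PC-3p-20428_184 (141 and 42.8), and PC-5p-20243_186 is dark red in ABA8 (188).

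The day-0 and day-8 controls lay together for many members, with the day-5 control between or on the other side. In 32 of the 162 members CK0 and CK8 were both below the other 5 libraries, and in 19 both were above them. The gap to the other 5 was 2-fold or more in 6 of the 32 and in 5 of the 19, so most differed by rank only. The only pair of libraries at the extremes about as often was ABA5 and ABA8, with 24 members above and 22 below. For this pair the gap was 2-fold or more in 1 of the 24 and 1 of the 22. Among the 126 named miRNAs that reached 10 normalized reads, CK0 and CK8 were both above the rest in 10 and both below in 15, and ABA5 and ABA8 in 37 and 12. In the members, CK5 and CK8 were together above the others in 8 members and below them in 2. The rank correlation of CK8 was 0.88 with CK0 and 0.92 with CK5 across these 126 named miRNAs, without the order seen in the members. These correlations are across sequences, which are not independent and share each library's depth. In the transcriptome libraries CK8 correlated about equally with CK0 and CK5 (0.85 and 0.87 across 61580 unigenes that reached 1 RPKM in at least 1 library). Some small RNAs put CK8 with CK5: mdm-miR156t_R+1_1ss15AT had 161, 1037 and 1147 normalized reads in CK0, CK5 and CK8, and PC-3p-4094_1077, as given above, was lowest in CK0 and higher in CK8 than in CK5. The label of CK8 was not tested further. For ABA8 and NDGA8 the counts and the largest differences named from CK8 are also given with CK5 as the control. This choice was made after seeing the data.

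**Figure D3:**
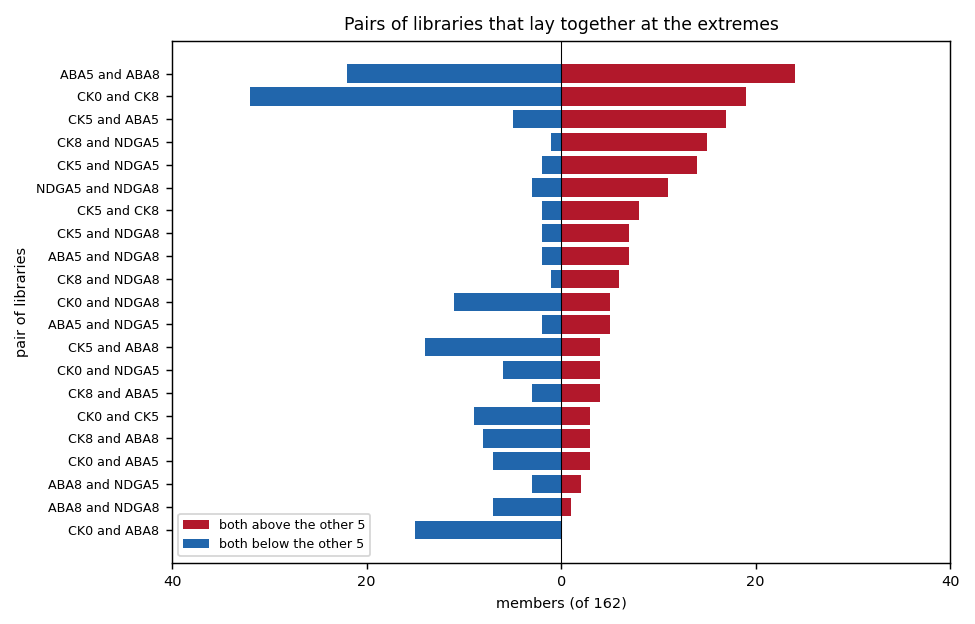
For each of the 21 pairs of libraries, the number of the 162 members in which both libraries lay above (right) or below (left) the other 5. The pairs ABA5 with ABA8 (24 and 22) and CK0 with CK8 (19 and 32) have the longest bars on both sides. The bars count ranks, and in most of these members the gap to the other 5 was under 2-fold.

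PC-5p-3974_1102 showed this pattern with many reads: 35.9 normalized reads in CK0 and 26.6 in CK8, against 202 in CK5, 259 and 349 after ABA on days 5 and 8, and 176 and 102 after NDGA. PC-5p-23229_152 had 2.87 in CK0 and 5.16 in CK8, and 33.8, 57.6, 64.9, 11.3 and 19.6 in the other libraries, in this order. PC-5p-24007_144, a 24-nt sequence, had 2.87 in CK0 and 2.58 in CK8, and 37.4, 83.4, 45.4, 14.6 and 45.0 in the others, likewise in this order. In all 3 the lowest of the other 5 libraries was more than 2-fold above CK0 and CK8. These values rest on 2 to 7 reads in CK0 and CK8 for the last 2 members and on 25 and 36 reads for the first. PC-5p-21298_173 was the reverse, with 55.2 in CK0 and 42.8 in CK8 and between 1.84 (ABA5) and 31.5 (NDGA8) elsewhere.

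**Figure D4:**
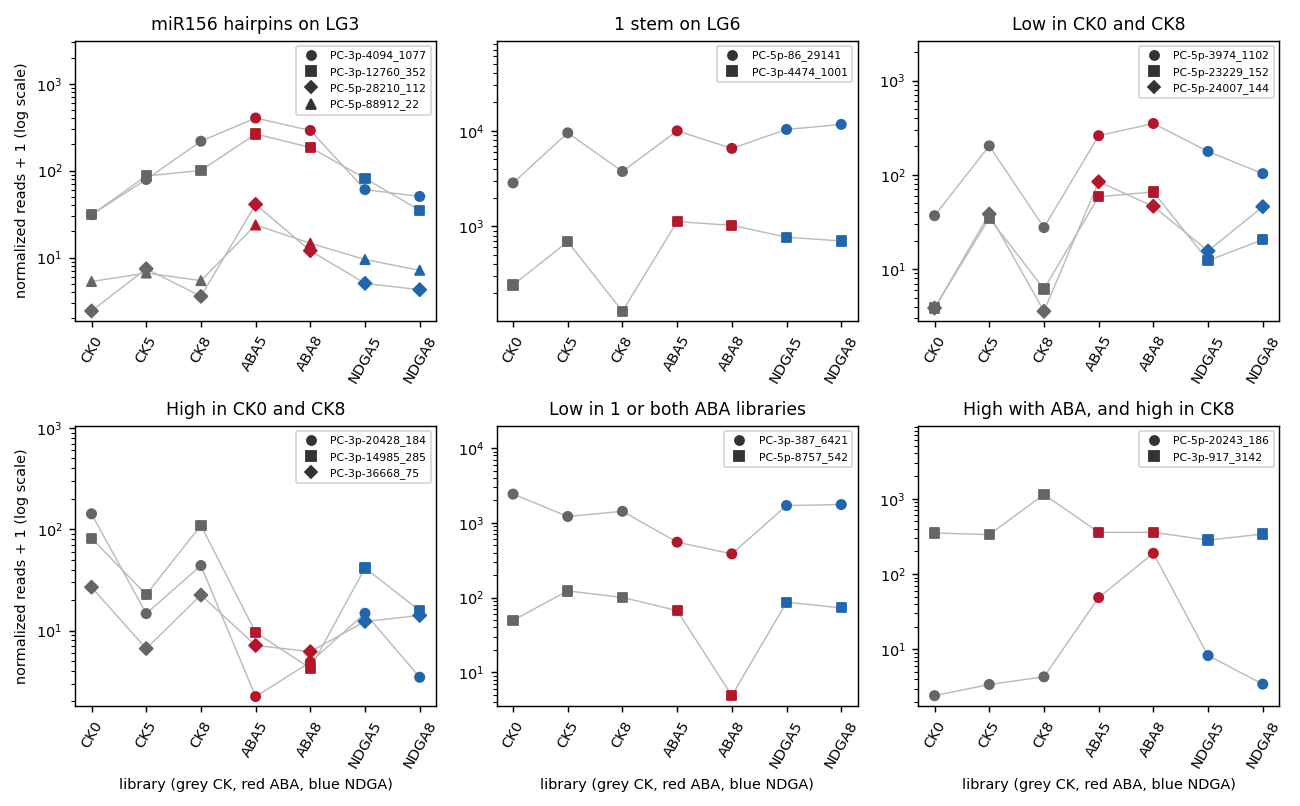
Normalized reads + 1 (log axis) of selected members in the 7 libraries, 1 point per library, grey for water, red for ABA and blue for NDGA. The strands of the miR156 hairpins peak in the ABA libraries (402 for PC-3p-4094_1077 in ABA5), the members of the third panel are low in CK0 and CK8, and PC-3p-917_3142 stands out in CK8 (1140).

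To compare conditions, a member was called higher or lower where its normalized reads + 1 differed at least 2-fold and 1 of the 2 libraries had at least 10. After 5 days of ABA, 21 of 117 members were higher than in CK5 and 22 lower. Over all 232 sequences that passed this minimum, 34.5% were higher and 15.1% lower, so that fewer of the predicted than of all sequences were higher on the deposited scale. The median log2 difference was 0.06 for the members and 1.05 for the named miRNAs. This split depended on the scaling: with reads scaled to the total of all listed reads (total scaling) 41 members were higher and 6 lower, and scaled to the total without the 10 most abundant sequences 12 were higher and 34 lower. Neither here nor below were the shares over all sequences computed under other scalings or with CK5 in place of CK8. The comparison with all sequences was therefore not tested beyond the deposited scale. PC-3p-4094_1077 was 5.09-fold higher (interval 4.09 to 6.53), PC-5p-45907_54 4.57-fold (3.08 to 7.45) and PC-3p-12760_352 3.04-fold (2.43 to 3.92). PC-5p-45907_54 had 11.5, 23.4 and 49.4 normalized reads on days 0, 5 and 8 with water, 110 and 51.9 on days 5 and 8 with ABA, and 31.6 and 43.4 with NDGA. PC-3p-387_6421, with the most reads of the lower members, was 2.20-fold lower (1.98 to 2.45), and under total scaling its log2 difference was -0.63, short of 2-fold.

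On day 8, 23 of 102 members were higher in ABA8 than in CK8 and 36 lower, against 33.0% higher and 31.6% lower over all 206 sequences. With CK5 as the control 14 were higher and 35 lower. Under total scaling 19 were higher than in CK8 and 62 lower. PC-5p-20243_186 was 43.8-fold higher in ABA8 (24.4 to 237), PC-5p-3974_1102 12.7-fold (9.26 to 19.2) and PC-5p-23229_152 10.7-fold (5.67 to 32.8). PC-3p-14985_285 was 25.6-fold lower (11.3 to 346), PC-5p-27772_115 22.6-fold (6.81 to 1572) and PC-5p-8757_542 20.6-fold (8.57 to 126). These 3 lower values rest on 1 to 3 reads in ABA8. Against CK5, PC-5p-20243_186 was 55.4-fold higher (26.1 to 382), PC-5p-8757_542 25.2-fold lower (10.6 to 154) and PC-3p-14985_285 5.36-fold lower (2.11 to 72.7). The other 3 were then within 2-fold: PC-5p-3974_1102 at 1.72-fold higher, PC-5p-23229_152 at 1.89-fold higher and PC-5p-27772_115 with 1.30 normalized reads in ABA8 against 1.61 in CK5. PC-5p-8757_542 had 3.89 normalized reads in ABA8 and 66.2 in ABA5, against 48.8, 122 and 99.6 in the 3 controls by day and 85.8 and 72.0 after NDGA, so that ABA8 alone was low.

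The ABA comparisons of day 5 and day 8 share no library. Of the 21 members higher in ABA5 and the 23 higher in ABA8, 6 were in both lists (28.6% and 26.1%): PC-5p-20243_186, PC-5p-24007_144, PC-5p-28210_112, PC-5p-88912_22, PC-3p-21882_166 and PC-3p-70433_29. Of the 22 and 36 lower members, 6 were in both (27.3% and 16.7%): PC-3p-387_6421, PC-3p-14985_285, PC-3p-20428_184, PC-3p-50124_47, PC-5p-35169_80 and PC-5p-46021_53. Over all sequences, 80 were higher in ABA5 and 68 in ABA8, with 41 in both lists (51.2% and 60.3%), and 35 and 65 were lower, with 15 in both (42.9% and 23.1%), so that smaller shares of the member lists were shared, with no test of that difference. PC-5p-28210_112 and PC-5p-88912_22 were strands of the miR156 hairpins. The overlap was not computed with CK5 as the day-8 control. PC-5p-24007_144 (45.4 normalized reads in ABA8, 37.4 in CK5), PC-5p-35169_80 (10.4 and 12.1) and PC-5p-28210_112 were then within 2-fold. The other listed members kept their direction at 2-fold or more. In ABA8 against CK8 the counting intervals of PC-5p-28210_112 and PC-5p-88912_22 included 1 (from 0.942 and 0.965). So did that of PC-5p-46021_53 in ABA5 against CK5 (0.0257 to 1.03). All others excluded 1.

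After 5 days of NDGA, 15 of 115 members were higher than in CK5 and 8 lower, against 8.17% higher and 11.1% lower over all 208 sequences. Under total scaling 3 were higher and 9 lower. No member that was called had 50 normalized reads in either library. PC-5p-36983_74, PC-3p-387_6421 and PC-5p-86_29141, with 24.3, 1704 and 10305 in NDGA5 against 20.9, 1216 and 9501 in CK5, were all within 2-fold. On day 8, 18 of 106 members were higher in NDGA8 than in CK8 and 25 lower, against 20.2% higher and 22.1% lower over all 208 sequences. With CK5 as the control 14 were higher and 15 lower. Under total scaling 9 were higher than in CK8 and 57 lower, with the median ratio of named miRNAs 21 higher and 18 lower, and without the 10 most abundant sequences 21 higher and 17 lower.

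In NDGA8, PC-3p-4474_1001 was 5.44-fold higher than in CK8 (4.64 to 6.48), PC-5p-3974_1102 3.72-fold (2.62 to 5.71) and PC-5p-86_29141 3.11-fold (3.01 to 3.21). For PC-5p-86_29141 the log2 difference was 0.90 under total scaling, short of 2-fold. PC-3p-14985_285 was 6.91-fold lower (4.47 to 12.7), PC-5p-27772_115 4.46-fold (2.62 to 9.43) and PC-3p-4094_1077 4.31-fold (3.34 to 5.93). Against CK5 none of these 6 was called in the same direction. PC-5p-27772_115 was then 4.46-fold higher in NDGA8 (13 reads against 2), and PC-5p-3974_1102 had a log2 difference of -0.99 in place of 1.90. The log2 differences of the other 4 from CK5 lay between -0.65 (PC-3p-4094_1077) and 0.29 (PC-5p-86_29141), short of 2-fold. Of these 6, all but PC-3p-4094_1077 belonged to the members in which CK8 lay nearer to CK0 than to CK5.

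ABA and NDGA were compared directly on both days. In ABA5, 27 of 125 members were higher than in NDGA5 and 25 lower, against 35.6% and 16.7% over all 239 sequences. Here 60 were higher and 10 lower under total scaling, 22 and 32 with the median ratio of named miRNAs, and 12 and 46 without the 10 most abundant. In ABA8, 16 of 97 were higher than in NDGA8 and 23 lower, against 23.5% and 17.0% over all 200 sequences. Here 21 were higher and 15 lower under total scaling, 12 and 35 with the median ratio, and 9 and 42 without the 10 most abundant. The order of the 2 directions was thus set by the scaling on both days.

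**Figure D5:**
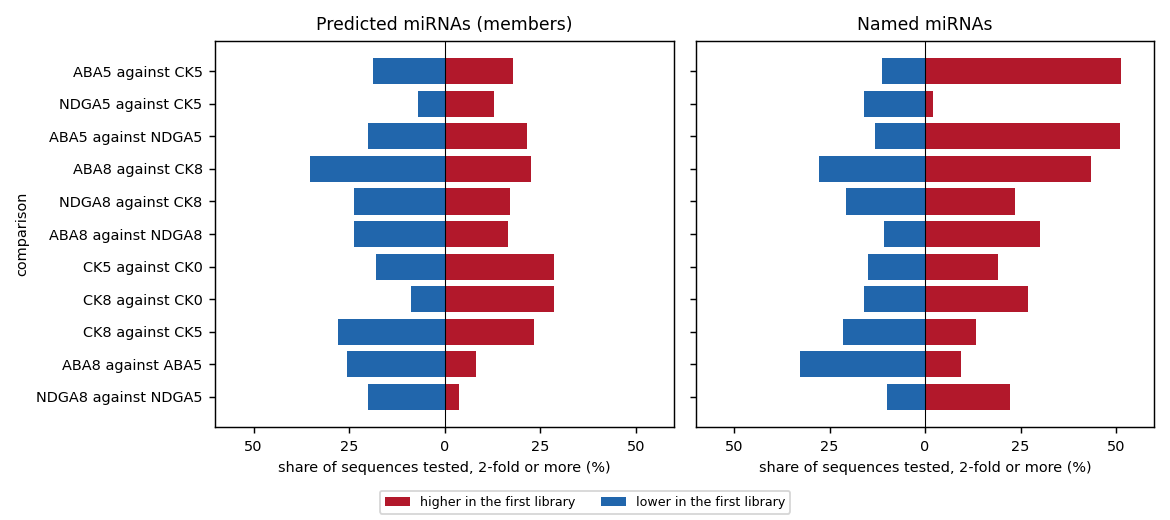
Share (%) of the sequences tested that were at least 2-fold higher (red, right) or lower (blue, left) in the first library of each of 11 comparisons, for the members and for the named miRNAs, on the deposited normalized reads. In ABA5 against CK5 the red bar is 17.9% for the members and 51.3% for the named miRNAs.

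In the water controls, 32 of 112 members were higher in CK5 than in CK0 and 20 lower, against 24.1% and 16.5% over all 212 sequences. Under total scaling 20 were higher and 27 lower. In CK8, 29 of 101 were higher than in CK0 and 9 lower, against 27.9% and 12.4% over all 201 sequences. Here 49 were higher and 7 lower under total scaling, and 18 and 14 without the 10 most abundant. Against CK0, PC-3p-4094_1077 was 7.00-fold higher in CK8 (4.62 to 11.8), PC-3p-917_3142 3.24-fold and PC-3p-12760_352 3.23-fold (2.08 to 5.51). PC-3p-20428_184 was 3.23-fold lower (2.35 to 4.63).

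Between CK8 and CK5, 27 of 115 members were higher in CK8 and 32 lower, against 18.9% and 25.0% over all 212 sequences, and under total scaling 59 were higher and 13 lower. Between day 8 and day 5 of the same treatment more members were lower than higher on the deposited scale. In ABA8, 8 of 98 were higher than in ABA5 and 25 lower, against 8.88% and 29.4% over all 214 sequences. In NDGA8, 4 of 110 were higher than in NDGA5 and 22 lower, against 12.4% and 15.3% over all 209 sequences, and under total scaling 9 were higher and 4 lower.

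Degradome sequencing, which reads the 5′ ends of cleaved transcripts, bore on few members. The table listed 443 predicted target sites for 58 members, and 54 of these sites, for 20 members, had at least 1 read. The share of sites with reads among the other sequences was not computed here. Of the 54 sites, 28 had 1 or 2 reads. Another 10 sites had 10 or more reads over the 7 libraries, and sites on variants of one assembled transcript repeat the same reads. PC-5p-52022_45, the miR3627 relative, had a site at position 553 of comp117349_c0_seq6 with the best alignment score of these, 1. It had 48, 7 and 4 reads in the controls CK0, CK5 and CK8, 32 and 5 after ABA on days 5 and 8, and 18 and 12 after NDGA on these days, and category 2 in every library, on a scale where 0 marks the clearest sites. The same site was also listed for ptc-miR3627b_R-1_1ss19GA, so that its reads belong to either sequence. The member itself had 1.43, 2.42 and 8.11 normalized reads on days 0, 5 and 8 with water, 1.23 and 2.59 on days 5 and 8 with ABA, and 31.6 and 13.1 with NDGA. Its highest library, NDGA5, was not that of the cleavage reads, CK0. The transcript, which has no annotation in the table, had between 28.7 (ABA8) and 60.4 RPKM (ABA5).

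Another site with many reads was that of PC-3p-57431_39 on comp120169_c1_seq10, with 128 reads over the 7 libraries and an alignment score of 3.5, where higher scores mean a poorer match. PC-3p-387_6421 had 8 reads at a site on comp108840_c0_seq4 and 6 at a site on comp102724_c1_seq5. PC-5p-86_29141 had no site among those with 5 or more reads.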

How the data were processed

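Small RNA, degradome and transcriptome libraries were made from the same 7 conditions (21 libraries). The small RNA table deposited by the authors gives, for each mature sequence and hairpin, an estimated count of reads, which can be fractional where a sequence has several places, and a normalized level (unit: score), which was the estimated count times 1 factor per library, from 0.738 (CK8) to 1.43 (CK0); the factor's origin, mapping tool and genome build were not given in the sources used here. Likewise the degradome table deposited by the authors gives the read count at each site and its category, a score. The unigene table deposited by the authors gives RPKM. The authors' p-value and false discovery columns were not used. 7 emptied lines of the small RNA table were not analysed here.

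Lines of 1 sequence with identical values were counted once and otherwise summed. Members were the PC- sequences with 10 or more normalized reads in 1 library. Comparisons used log2(normalized reads + 1), a minimum of 10 in 1 of the 2 libraries and a 2-fold rule. Ratio intervals were exact binomial (Clopper-Pearson, 95%) on the reads rounded to whole numbers. With 1 library per condition no test was possible. Named members were the 12 highest by mean level, the 3 largest rises and falls with 50 or more normalized reads in each of 5 comparisons, those at the edge of the minimum, those related to named miRNAs, and those with a degradome site, of which only those with the most reads are named. Other members were named after their values were seen. The members and lists were chosen with earlier results of these data known. Python 3.11.15 with pandas 2.3.3, numpy 2.4.6, scipy 1.17.1 and matplotlib 3.10.9 was used. The calling rule was run on simulated counts that held counting error only. The planted changes were larger than 2-fold and lay in sequences well above the minimum, so this is no check of the calls made here. Genes of small RNA biogenesis and tissue markers were not analysed here, as most unigenes carry no name in the table used.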

Additional observations from a re-analysis of the deposited data

Results flagged for a closer look

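In all, 7 members were called in opposite directions on day 5 and day 8 under the same treatment, each against the control of its day. The share over all sequences was not computed, so whether such calls are particular to the members was not tested. With 1 library per condition the difference between the days was not tested, and all but 1 of the 7 involved NDGA. PC-5p-24007_144 had a log2 difference of -1.30 between NDGA5 and CK5 and of 3.68 between NDGA8 and CK8, and PC-5p-23229_152 of -1.50 and 1.74. In both, the level in CK8 was low (2.58 and 5.16 normalized reads). PC-5p-27772_115 had 3.36 on day 5 and -2.16 on day 8, and PC-3p-118113_15 had 3.72 and -3.34. These 2 had 1.61 and 0 normalized reads in CK5 and 50.9 and 33.9 in CK8. PC-3p-134442_13 had 1.31 and -1.0, and PC-3p-137280_13 had 1.02 and -1.35. Under ABA, PC-3p-20041_189 had 1.29 between ABA5 and CK5 and -1.39 between ABA8 and CK8. In all 7 the levels of the controls CK5 and CK8 differed in the sense that set the opposite calls, and the part of the CK8 library in this was not tested.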

How the results depend on the processing

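Of 134 alternative counts of called members, 87 lay within 1.5 times the count reported and 47 did not. With a 1.5-fold rule the counts were 71 for ABA5 against CK5, 42 for NDGA5 against CK5, 69 for NDGA8 against CK8, 83 for CK5 against CK0, 61 for CK8 against CK0, 51 for ABA8 against ABA5 and 46 for NDGA8 against NDGA5. With a 3-fold rule they were 21 for ABA5 against CK5, 9 for NDGA5 against CK5, 33 for ABA5 against NDGA5, 25 for NDGA8 against CK8, 34 for CK5 against CK0, 20 for CK8 against CK0, 37 for CK8 against CK5, 15 for ABA8 against ABA5 and 6 for NDGA8 against NDGA5. With a minimum of 50 normalized reads they were 5 for ABA5 against CK5, 0 for NDGA5 against CK5, 8 for ABA5 against NDGA5, 17 for ABA8 against CK8, 11 for NDGA8 against CK8, 10 for ABA8 against NDGA8, 13 for CK5 against CK0, 8 for CK8 against CK0, 12 for CK8 against CK5, 4 for ABA8 against ABA5 and 3 for NDGA8 against NDGA5, as fewer members were compared. With no minimum they were 36 for NDGA5 against CK5, 66 for ABA8 against NDGA8 and 57 for ABA8 against ABA5. With a pseudocount of 10 they were 17 for ABA5 against CK5, 5 for NDGA5 against CK5, 25 for ABA5 against NDGA5, 38 for ABA8 against CK8, 27 for NDGA8 against CK8, 15 for ABA8 against NDGA8, 33 for CK5 against CK0, 19 for CK8 against CK0, 37 for CK8 against CK5, 10 for ABA8 against ABA5 and 6 for NDGA8 against NDGA5. Total scaling, to the sum of all listed reads, moved a library against the deposited scale by -0.61 (NDGA5) to 0.49 (CK8) on the log2 scale, and gave 12 for NDGA5 against CK5, 66 for NDGA8 against CK8 and 13 for NDGA8 against NDGA5. Without the 10 most abundant sequences the count was 20 for ABA8 against ABA5. Where the counting interval had to exclude 1, it was 15 for NDGA5 against CK5 and 18 for ABA8 against ABA5. A pseudocount of 0.1, the median ratio of named miRNAs, the largest line per sequence, members counted once per overlap and the control CK5 in place of CK8, an alternative chosen after seeing the data, kept every count within 1.5 times.

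The share of the members in all reads, without the most abundant one, was 2.02%, 1.73% and 3.16% with water on days 0, 5 and 8, 2.75% and 2.04% with ABA on days 5 and 8, and 1.44% and 1.80% with NDGA, and over all predicted sequences 3.27%, 4.38%, 5.34%, 6.68%, 4.30%, 3.69% and 4.93%, listed in this order. A minimum of 5 gave 393 members and one of 50 gave 41. Among these 41, 56.1% were 21 nt, 31.7% were 22 nt, 4.88% were 24 nt and 14.6% began with A. The 20 differences of named members chosen by size kept their direction under each of 5 alternatives in scaling or pseudocount. They were chosen at 2-fold or more, and no alternative moved 2 compared libraries apart by that much. Their direction therefore could not turn, and this is no check of them. Over these alternatives and the control CK5, 83 of 112 values lay within the counting interval of the reported difference. With CK5 in place of CK8, 2 of the 12 day-8 differences turned: the log2 difference in NDGA8 became 2.16 for PC-5p-27772_115 and -0.99 for PC-5p-3974_1102. No paired analysis was possible because each condition had 1 library. Differences of members near the minimum rest on about 7 to 14 reads and were often not detectable at this depth.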
